A study of Homo sapiens with 6 samples.

Results

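YAP1 and its paralog WWTR1 (the gene of TAZ) encode coactivators that carry no DNA-binding domain and reach DNA through the TEAD factors. The Hippo kinases, LATS1 and LATS2 among them, phosphorylate both proteins and keep them out of the nucleus, and cell contact, the actin cytoskeleton and matrix stiffness act on them as well. CCN1, CCN2 and ANKRD1 are the usual transcript readouts of nuclear YAP and TAZ, and AMOTL2 and LATS2 are targets that also act back on the pathway. Because the coactivators are controlled largely at the protein level, their own RNA is a poor measure of their activity.

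The 10 genes described are CCN1 and CCN2 (older symbols CYR61 and CTGF), ANKRD1, AXL, AMOTL2, LATS2, AJUBA, YAP1, WWTR1 and TEAD1. They were chosen by symbol as targets and components of the pathway, out of 57736 genes in the deposited count table, and all 10 passed the low-count filter that left 15421 genes for testing. The cells were AALE, an established human line of basal cells of the bronchus, transformed with SV40 and hTERT and grown in a small airway growth medium. Stable pools carried a lentiviral control vector (3 libraries, called control 1 to 3) or a lentiviral NRG1 overexpression vector (3 libraries, called NRG1 1 to 3). NRG1 encodes neuregulin, an ERBB ligand, and the question is which transcripts differ once airway cells make NRG1. Each group is thus a selected pool in a single immortalised line, and no time after transduction is given in the labels. Whether the libraries of a group were separate cultures is not in the labels, so the p-values measure only library-to-library spread, which may be technical. Values of a group are listed in the order of replicate number throughout.

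The libraries held between 8612234 (NRG1 1) and 13207620 (control 3) expected counts. Genes with at least 10 counts numbered 14531 in NRG1 1 and 15337 to 15879 in the others. Whether these differences bear on the values below was not tested. NRG1 itself was at 7.87 to 12.3 CPM (counts scaled to the library size by the TMM method) in the controls. It was at 6647, 3854 and 3781 CPM in the NRG1 libraries, highest in NRG1 1, so the targeted gene matched every label. Whether the NRG1 level bears on the values of NRG1 1 below was not tested. Control 3 and NRG1 1 stood apart from the rest of their groups over all genes. As a ratio of the squared differences to those that sampling noise alone gives, NRG1 2 and NRG1 3 were at 2.73, control 1 and control 2 at 18.4, and the pairs that held control 3 or NRG1 1 between 37.9 and 63.3. The members' results are therefore also given without both libraries. All 9 basal epithelial markers passed the low-count filter. Led by KRT5, they summed to 9453 to 13380 CPM with the control vector and 6665 to 7930 CPM with NRG1. KRT14 and KRT17 were lower and EPCAM and CDH1 higher in every NRG1 library than in every control, and the other 5 overlapped between groups.

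CCN2 has the promoter in which the motif bound by TEAD factors was found most often among these genes. The searched letters were GGAATG on either strand (CATTCC on the other), in windows of 250 bases before to 50 bases from each RefSeq start (build GRCh38.p14, while the counts were made on hg19 per the submitters' processing notes). A window was found for 8 of the 10 genes, 12 windows in all, and not for CCN1 and TEAD1. At least 1 match stood in 7 of the 12, against 14% of all 35116 windows of that length. The CCN2 window held 3 matches, and 0.128% of all windows held 3 or more. The ANKRD1 window held 2, and 1.37% of all windows held 2 or more. The stretch of the CCN2 promoter with its matches in capitals, chr6:131951442-131951561 on the minus strand, runs from base -189 to base -70 before the start:
CCN2: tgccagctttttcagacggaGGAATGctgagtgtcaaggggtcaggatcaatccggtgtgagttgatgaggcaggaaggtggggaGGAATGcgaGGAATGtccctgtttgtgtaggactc
The matches of the other genes are shown with 12 bases on each side, to set the matches of the targets beside that of the coactivator gene YAP1. They lie at chr10:90921290-90921319 and chr10:90921198-90921227 (both minus strand) for ANKRD1, and at chr19:41226531-41226560 (plus strand, a second start) for AXL. Those of AMOTL2 and LATS2 lie at chr3:134374499-134374528 (a second start) and chr13:21061560-21061589, both on the minus strand, and the LATS2 match begins at base 10 after the start. The seventh gene with a match, AJUBA (a second start), is not printed, and WWTR1 had none. YAP1 has its match at chr11:102110273-102110302 on the plus strand:
ANKRD1 distal: atcaccaccaaaGGAATGgccctctcacat
ANKRD1 proximal: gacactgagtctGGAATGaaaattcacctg
AXL: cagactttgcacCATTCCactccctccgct
AMOTL2: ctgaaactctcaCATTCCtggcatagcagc
LATS2: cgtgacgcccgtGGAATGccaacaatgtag
YAP1: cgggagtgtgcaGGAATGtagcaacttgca
AP-1 factors often bind beside TEAD factors, and their letters TGANTCA, which read the same on both strands, were found in 1 of these 12 windows, that of ANKRD1 at base -195, against 7.71% of all windows. They overlap neither TEAD match there. The proximal ANKRD1 stretch and the match stretches of AMOTL2, AJUBA and YAP1 lie inside exons of GENCODE 29 transcripts. These matches are descriptions of letters in the windows and not of binding.

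With NRG1 overexpression none of the 10 genes changed past the test when all 6 libraries were compared. The RNA of CCN1 and CCN2, matricellular proteins that are secreted into the matrix and bind integrins, varied more within each group than the group means differed. YAP1, WWTR1 and TEAD1 each varied by less than a doubling over the 6 libraries. In edgeR (quasi-likelihood test, Benjamini-Hochberg adjusted over all genes) 0 of 10 had an adjusted p under 0.05, against 0.00648% of all tested genes (NRG1 alone), and the smallest adjusted p was 0.481, for LATS2. Unadjusted, 0 of 10 had a p under 0.05, against 11.1% of all genes. In 0 of 10 did the groups not overlap, against 19.6% of all genes (9.36% with NRG1 higher, 10.2% with NRG1 lower), and the median log2 fold change was -0.21, against -0.00029 over all genes. The sign of that median rested on single libraries: it was 0.071 without control 3, 0.064 without NRG1 2, 0.032 without NRG1 3 and -0.61 without NRG1 1. The two-sided exact permutation test of each gene's log2 level gave p from 0.2 to 1, where 3 against 3 libraries cannot go below 0.1. DESeq2 called 0 as well, with 1.36% of all genes called, and left CCN2 without a p-value. LATS2 alone had an unadjusted p under 0.05 without the low-count filter (9.92% of all genes did) and lay lower with no overlap when scaled by library totals alone (12.5% of all genes did).

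CCN1 (ENSG00000142871, chromosome 1) gave 66.9, 49.05 and 136.6 CPM with the control vector and 277.6, 39.6 and 33.3 CPM with NRG1. NRG1 1 was thus the highest of the 6 libraries and NRG1 2 and NRG1 3 the lowest, so the groups overlapped. Group means were 84.2 ± 46.3 CPM and 117 ± 139 CPM (SD, n = 3 each, control first), and the fitted log2 fold change was 0.47 (SE 0.79, 95% interval -1.34 to 2.28, adjusted p = 0.831 in edgeR). The direction turned without NRG1 1, where the log2 fold change was -1.21 (adjusted p = 0.243 in edgeR). It also turned on all 6 libraries by limma-trend (-0.096) and limma-voom (-0.16), while DESeq2 kept it (0.48).

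CCN2 (ENSG00000118523, chromosome 6), the CCN family member also known as connective tissue growth factor, had the widest spread. It gave 16.4, 20.2 and 126 CPM with the control vector and 108, 4.11 and 3.80 CPM with NRG1. Control 3 and NRG1 1 were high together, control 1 and control 2 intermediate, and NRG1 2 and NRG1 3 low, so the groups overlapped. The log2 fold change was -0.50 (SE 1.28, 95% interval -3.43 to 2.44, adjusted p = 0.899 in edgeR), an interval that leaves room for large changes either way. It turned to 1.05 without control 3 and went to -3.78 without NRG1 1 (adjusted p = 0.870 and 0.173 in edgeR). On all 6 libraries limma-trend and limma-voom put it at -1.54 and -1.69, neither past the threshold, and DESeq2 at -0.48. The lowest CCN2 value rested on 35 counts. An antisense gene overlaps 195 exonic bases of CCN2 and, since the TruSeq v2 kit does not mark strand, its reads cannot be told apart there. That gene was given 31.05 counts in control 3, 18.71 in NRG1 1 and 0 to 3.56 in the rest, against 35 to 1634 counts for CCN2.

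ANKRD1 (ENSG00000148677, chromosome 10), a nuclear and sarcomeric ankyrin-repeat protein and a target in many cell types, was hardly present. It gave 1.21, 1.31 and 0.386 CPM with the control vector and 1.73, 0.280 and 0.543 CPM with NRG1, on 3 to 15 counts per library. Control 3, high in CCN1 and CCN2, was low here, while NRG1 1 was again the highest. At such counts a difference was not detectable (log2 fold change -0.21, 95% interval -1.95 to 1.52).

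AXL (ENSG00000167601, chromosome 19), a receptor tyrosine kinase bound by GAS6, gave 83.7, 71.7 and 57.9 CPM with the control vector and 93.0, 47.1 and 42.1 CPM with NRG1. NRG1 2 and NRG1 3 lay below every control and NRG1 1 above every control. The log2 fold change was -0.23 (SE 0.31, 95% interval -0.95 to 0.49).

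**Figure D1:**
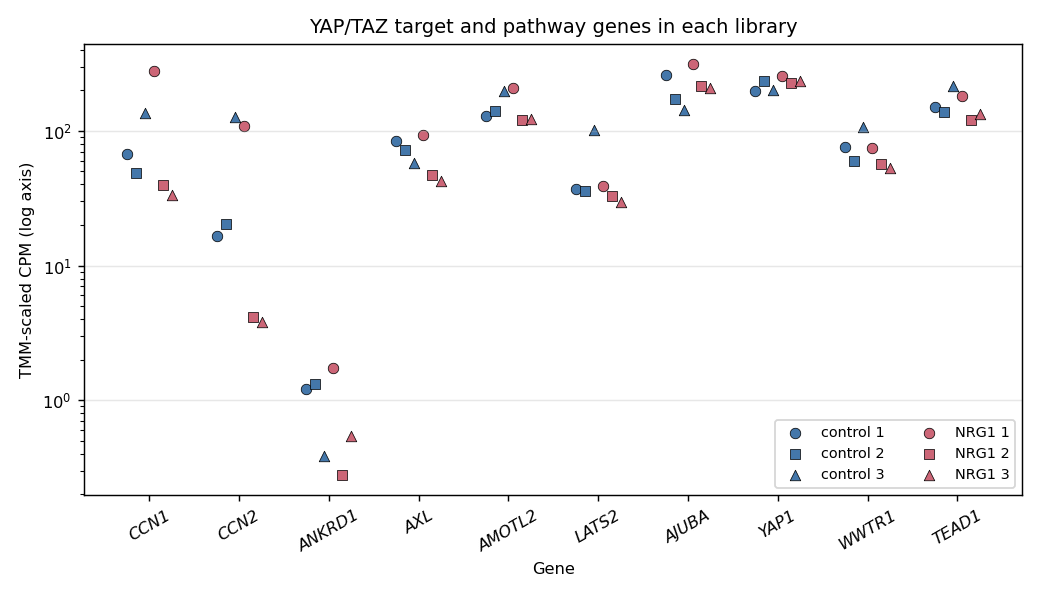
Level of each of the 10 genes (horizontal axis) in TMM-scaled CPM on a log axis, 1 point per library, with controls in blue and NRG1 libraries in red and the replicate number given by the marker. CCN2 runs from 3.80 CPM in NRG1 3 to 126 CPM in control 3, while YAP1 stays between 197.7 and 256 CPM.

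Both targets that act back on the pathway were high in control 3. AMOTL2 (ENSG00000114019, chromosome 3), an angiomotin-family scaffold that binds YAP and holds it at junctions and in the cytoplasm, gave 129, 141 and 199 CPM with the control vector and 209.5, 119.6 and 122 CPM with NRG1. The same libraries, control 3 and NRG1 1, were high as for CCN1 and CCN2, though by less than a doubling. LATS2 (ENSG00000150457, chromosome 13), a kinase that phosphorylates YAP and TAZ, gave 37.3, 36.0 and 102 CPM with the control vector and 38.8, 32.8 and 29.9 CPM with NRG1. It was high in control 3 alone, and the other 5 libraries lay close together. Its log2 fold change was -0.79 (SE 0.40, 95% interval -1.72 to 0.13), and -0.13 when control 3 was left out.

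AJUBA (ENSG00000129474, chromosome 14), a LIM-domain adaptor that binds LATS kinases and lowers their action on YAP, gave 261.5, 174 and 144 CPM with the control vector and 311, 216 and 209 CPM with NRG1. NRG1 1 was the highest library and control 3 the lowest, so control 3 was placed opposite to its place in CCN1 and CCN2. The log2 fold change was 0.34 (SE 0.26, 95% interval -0.25 to 0.94).

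The coactivators YAP1 and WWTR1 and their DNA-binding partner TEAD1 were measured at levels well above the counting limit. YAP1 (ENSG00000137693, chromosome 11) gave 197.7, 233 and 203 CPM with the control vector and 256, 225 and 235 CPM with NRG1, with overlapping groups and a log2 fold change of 0.17 (SE 0.14, 95% interval -0.16 to 0.51). WWTR1 (ENSG00000018408, chromosome 3) gave 75.7, 59.3 and 106 CPM with the control vector and 75.2, 56.3 and 53.2 CPM with NRG1 (log2 fold change -0.39, SE 0.25, 95% interval -0.96 to 0.18). TEAD1 (ENSG00000187079, chromosome 11) gave 151.5, 138 and 214 CPM with the control vector and 183, 121 and 134 CPM with NRG1 (log2 fold change -0.20, SE 0.23, 95% interval -0.73 to 0.32). Control 3 was the highest library for both WWTR1 and TEAD1, and these intervals leave room for no more than about a doubling in either direction. WWTR1 has an antisense partner, WWTR1-AS1, that overlaps 795 of its exonic bases and was given 10 to 41 counts per library, against at least 490 counts for WWTR1.

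Levels per kilobase rest on a single annotated length per gene, such as 3075 bases for TEAD1 and 13665 for WTIP. Which transcripts these cells make was not measured, so the rankings hold for those lengths only. Per kilobase of the longest principal GENCODE 29 transcript, YAP1 was above WWTR1 in every library. Its level was 36.7 to 47.5 CPM per kilobase, against 10.6 to 21.1 CPM per kilobase for WWTR1. TEAD1 was the TEAD gene with the highest level per kilobase in every library, at 39.5 to 69.6 CPM per kilobase. TEAD2 and TEAD4 had medians of 11.7 and 16.3 CPM per kilobase, and TEAD3 ran from 15.5 to 23.8 CPM per kilobase. Among angiomotins AMOTL2 led in every library (median 30.1 CPM per kilobase), followed by AMOTL1 (14.0) and AMOT (0.265). AJUBA likewise had a median of 49.8 CPM per kilobase, against 5.83 for LIMD1 and 1.07 for WTIP, its LIM relatives. LATS1 and LATS2 had medians of 10.7 and 6.66 CPM per kilobase. LATS1 was above LATS2 in every library, though their ranges over the libraries overlapped.

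Across the 10 genes, NRG1 1 was the highest of the 3 NRG1 libraries in 10, against 44.9% of all tested genes. These counts of high and low libraries were made after the values were seen and carry no test. Control 3 was the highest control in 6 genes (CCN1, CCN2, AMOTL2, LATS2, WWTR1 and TEAD1) and the lowest in 3 (ANKRD1, AXL and AJUBA), against 40.9% and 40.4% of all genes. The median log2 difference of NRG1 1 from the mean of NRG1 2 and NRG1 3 was 0.67 over the 10 genes, against 0.011 over all genes, and was largest for CCN2 (4.71) and CCN1 (2.93) and smallest for YAP1 (0.15). NRG1 2 and NRG1 3 differed by a median of 0.12 on the log2 scale in these genes, against 0.12 over all genes. Both lay below all 3 controls in 7 of the 10 genes, against 22.2% of all genes, and above them in 0, against 22.5%. Of the fibroblast markers, 3 of 8 passed the low-count filter and none was at 0 in every library. They summed to 44.6 to 70.5 CPM with the control vector and 22.1, 28.1 and 28.8 CPM with NRG1. COL1A1 led this sum and was lowest in NRG1 1 (11.1 CPM). DCN and THY1, the others past the filter, were instead highest in NRG1 1 among the NRG1 libraries (7.29 and 1.98 CPM). The 5 endothelial markers measured summed to 1.08 to 4.07 CPM with CDH5 at 0 in every library. The 8 leukocyte markers (2 of them past the filter) summed to 22.3 to 34.3 CPM with the control vector and 27.9, 12.6 and 9.42 CPM with NRG1, led by CD68, with CD3E and TYROBP at 0 throughout. The part of these markers in the values above was not tested.

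**Figure D2:**
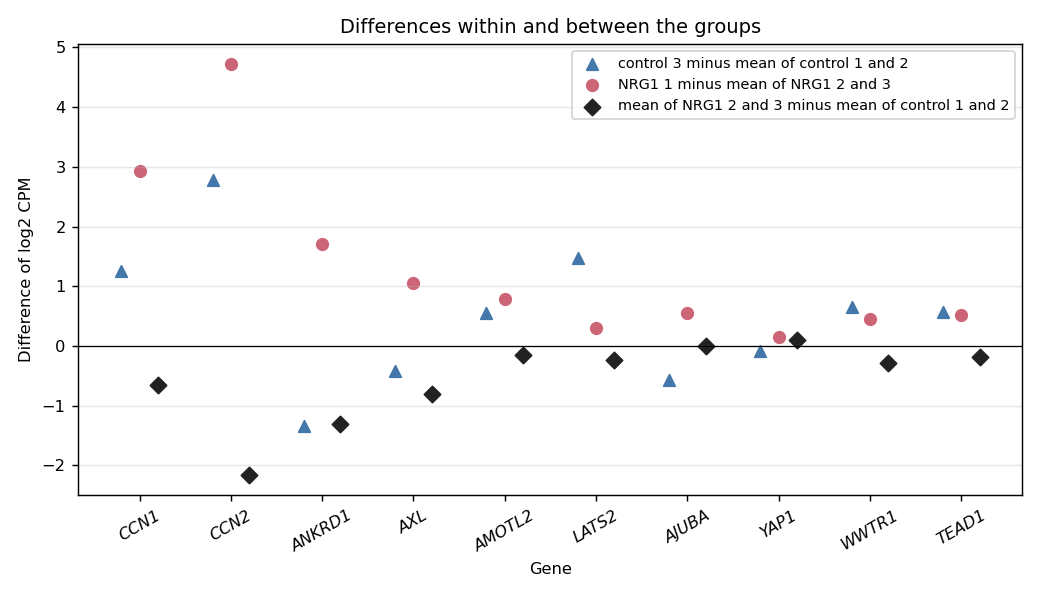
Differences of log2 CPM (vertical axis) for each of the 10 genes: control 3 from the mean of control 1 and control 2 (blue triangles), NRG1 1 from the mean of NRG1 2 and NRG1 3 (red circles), and the mean of NRG1 2 and NRG1 3 from the mean of control 1 and control 2 (black diamonds). The red circles are above 0 for all 10 genes and reach 4.71 for CCN2, where the black diamond is at -2.15.

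Without control 3 and NRG1 1, a comparison of 2 against 2 libraries chosen after seeing the data, CCN2 and AXL were lower in the NRG1 libraries. Since those libraries were left out because they stood apart, the p-values of that comparison are too small, by how much is unknown. CCN2, rescaled over these libraries, gave 16.8 and 20.6 CPM with the control vector and 4.19 and 3.87 CPM with NRG1, a log2 fold change of -2.20 (SE 0.22, adjusted p = 0.00371 in edgeR). AXL had one of -0.80 (SE 0.13, adjusted p = 0.0130 in edgeR). CCN1 had one of -0.67 (SE 0.17, adjusted p = 0.0540 in edgeR) and ANKRD1 one of -1.61 (SE 0.56, adjusted p = 0.114 in edgeR), neither past the threshold. The other 6 genes had log2 fold changes from -0.30 (WWTR1) to 0.094 (YAP1). In this comparison 2 of the 10 genes were called, 0 higher and 2 lower, against 9.62% of all genes (4.91% higher and 4.71% lower). Unadjusted, 4 of 10 had a p under 0.05, against 27.1% of all genes, and 8 of 10 lay lower with no overlap, against 28.8% of all genes. Without NRG1 1 alone, 0 of 10 were called (0.318% of all genes), 3 had an unadjusted p under 0.05 (CCN1, CCN2 and AXL, against 17.2% of all genes), and 7 lay lower with no overlap, against 22.2% of all genes. In the left-out NRG1 1, CCN2 and AXL were above control 1 and control 2.

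**Figure D3:**
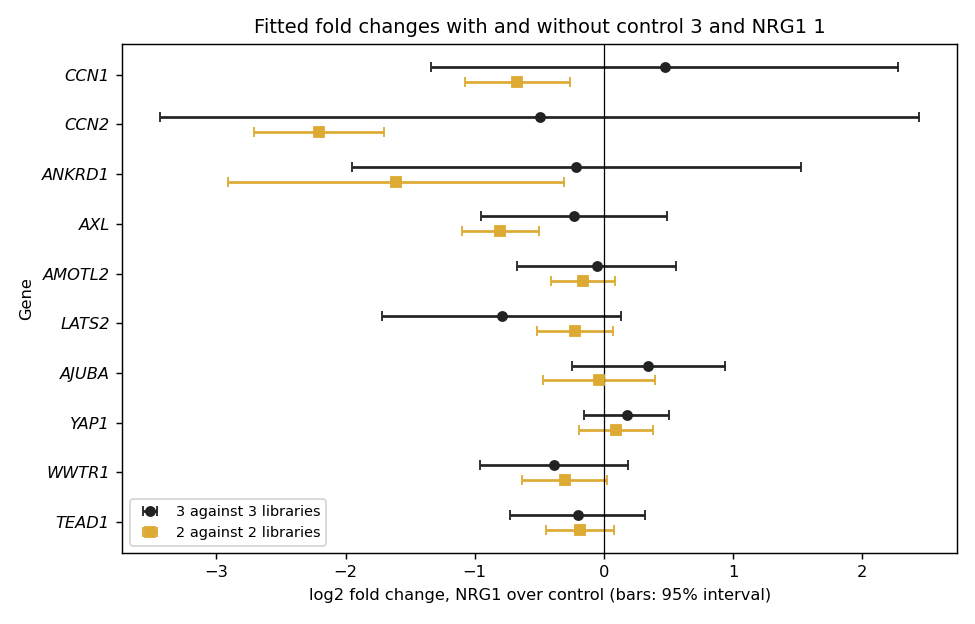
Fitted log2 fold change of NRG1 over control (horizontal axis) for each of the 10 genes with its 95% interval, from all 6 libraries (black circles) and from 2 against 2 libraries (yellow squares). All 10 black intervals span 0, and the CCN1 point moves from 0.47 to -0.67.

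Of 16 further YAP/TAZ targets, 15 were tested and 0 passed edgeR over all genes (smallest adjusted p 0.371). By unadjusted p under 0.05 in edgeR, 1 was higher and 2 lower, against 715 higher and 1004 lower of all 15421 genes. Their median log2 fold change was -0.21. MYOF, a ferlin of the plasma membrane, gave 314, 219 and 208 CPM with the control vector and 325.5, 379 and 393 CPM with NRG1, so all NRG1 libraries lay above the controls (log2 fold change 0.57, SE 0.19). IGFBP3, a binding protein of insulin-like growth factors, lay lower in all NRG1 libraries but at 4 to 30 counts (1.69, 1.61 and 2.32 CPM with the control vector, 0.494, 0.654 and 0.868 CPM with NRG1). NUAK2, an AMPK-related kinase, gave 32.1, 17.5 and 51.4 CPM with the control vector and 17.1, 17.5 and 16.8 CPM with NRG1, level with control 2. F3, the tissue factor gene, followed CCN2 in that control 3 was highest (101 CPM) and NRG1 2 and NRG1 3 lowest (22.1 and 23.9 CPM). In the 2 against 2 comparison F3, NT5E and TGFB2 were called, all lower (3 of 15, against 4.71% of all genes called lower), with log2 fold changes of -0.76, -2.43 and -1.49. NT5E, the ectoenzyme CD73, gave 86.5, 27.9 and 130 CPM with the control vector and 80.3, 11.03 and 10.3 CPM with NRG1. As for CCN2, control 3 and NRG1 1 were the highest of their groups. Unlike in CCN2, control 1 lay above NRG1 1 and far above control 2. NT5E and TGFB2, a TGF-beta ligand, were named after their values were seen, and TGFB2 rested on 20 to 107 counts per library. TGFB2 had its highest level of all libraries in the left-out NRG1 1, and the left-out control 3 was its lowest control. F3 in NRG1 1 (51.05 CPM) lay above control 1 and control 2 (44.57 and 32.8 CPM). From all 6 libraries the log2 fold changes of F3, NT5E and TGFB2 were -0.88, -1.27 and -0.29, none past the threshold.

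None of the Hippo kinase genes passed edgeR (0 of 14, smallest adjusted p 0.397, median log2 fold change -0.14). By unadjusted p under 0.05 in edgeR, 1 was higher and 0 lower, against 11.1% of all genes in either direction. WWC1, the upstream scaffold KIBRA, gave 61.7, 58.8 and 51.3 CPM with the control vector and 88.1, 76.9 and 71.1 CPM with NRG1, with no overlap (log2 fold change 0.46, SE 0.17). MOB1A, a cofactor of LATS kinases, was also above the controls in all NRG1 libraries (123.6 to 178 CPM in control, 190.1 to 223 CPM in NRG1). LATS1 gave 80.0, 83.1 and 146 CPM with the control vector and 80.6, 63.2 and 65.4 CPM with NRG1, high in control 3 as LATS2 was. FRMD6 and TAOK3, an upstream adaptor and an upstream kinase, had log2 fold changes of -0.65 and -0.47, again with control 3 as the highest library. In the 2 against 2 comparison 0 of 14 were called, against 9.62% of all genes.

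Among the relatives of TEAD1, AMOTL2 and AJUBA and the competing VGLL cofactors, 9 of 10 were tested and 0 passed edgeR. The smallest adjusted p in edgeR was 0.416 and the median log2 fold change 0.16. By unadjusted p under 0.05 in edgeR, 0 were higher and 1 lower, against 11.1% of all genes in either direction. TEAD4 gave 28.1, 30.4 and 45.1 CPM with the control vector and 26.9, 18.4 and 19.5 CPM with NRG1, with no overlap (log2 fold change -0.68, SE 0.26). TEAD3 was level in NRG1 1 (46.4 CPM, against 48.4 to 52.7 CPM in control) and higher in NRG1 2 and NRG1 3 (70.9 and 66.2 CPM). VGLL3, a TEAD cofactor, gave 23.6, 21.0 and 33.7 CPM with the control vector and 22.6, 48.9 and 51.9 CPM with NRG1. AMOT ran likewise, on only 9 to 66 counts per library. It gave 1.13, 1.41 and 2.24 CPM with the control vector and 1.11, 6.17 and 4.56 CPM with NRG1. For these 3 genes NRG1 1 lay at or near the level of control 1, the reverse of its high place in the 10 genes above. Over the list NRG1 1 was the lowest NRG1 library in 7 of 9 genes, as in 7 of 10 junction and polarity genes, against 43.5% of all genes. It was the highest NRG1 library in 12 of 14 Hippo kinase genes and 9 of 15 further targets, against 44.9% of all genes. WTIP had a log2 fold change of -0.47. The 2 against 2 comparison called VGLL3 and AMOT as higher (log2 fold changes 1.17 and 2.08) and TEAD4 as lower (-0.62), 3 of 9 in all, against 9.62% of all genes called in either direction.

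Junction and polarity genes upstream of the pathway did not pass edgeR either (0 of 10, smallest adjusted p 0.354, median log2 fold change 0.043). By unadjusted p under 0.05 in edgeR, 1 was higher and 0 lower, against 11.1% of all genes in either direction. DLG1, a scaffold of the basolateral Scribble complex, gave 112, 105 and 104 CPM with the control vector and 147.6, 149 and 158 CPM with NRG1, a separation wider than the spread of either group (log2 fold change 0.50, adjusted p = 0.354 in edgeR). The protocadherin FAT1 lay lower in all NRG1 libraries, at 259 to 314 CPM in control and 178 to 251 CPM in NRG1. DCHS1, FAT4 and LLGL2 overlapped between groups, with log2 fold changes of -0.88, 0.20 and 0.18, and DCHS1 rested on 6 to 24 counts per library. The 2 against 2 comparison called DLG1, LLGL2 and PATJ as higher (3 of 10, against 4.91% of all genes called higher), with log2 fold changes of 0.50, 0.67 and 0.51. PATJ, a Crumbs complex scaffold, was named after its values were seen. In the left-out libraries PATJ was at 90.6 CPM in control 3, its highest, and at 59.8 CPM in NRG1 1, below control 1 (63.8 CPM). LLGL2 was at 74.7 CPM in control 3 and at 40.2 CPM in NRG1 1, its lowest. Only DLG1 kept its direction in these libraries.

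**Figure D4:**
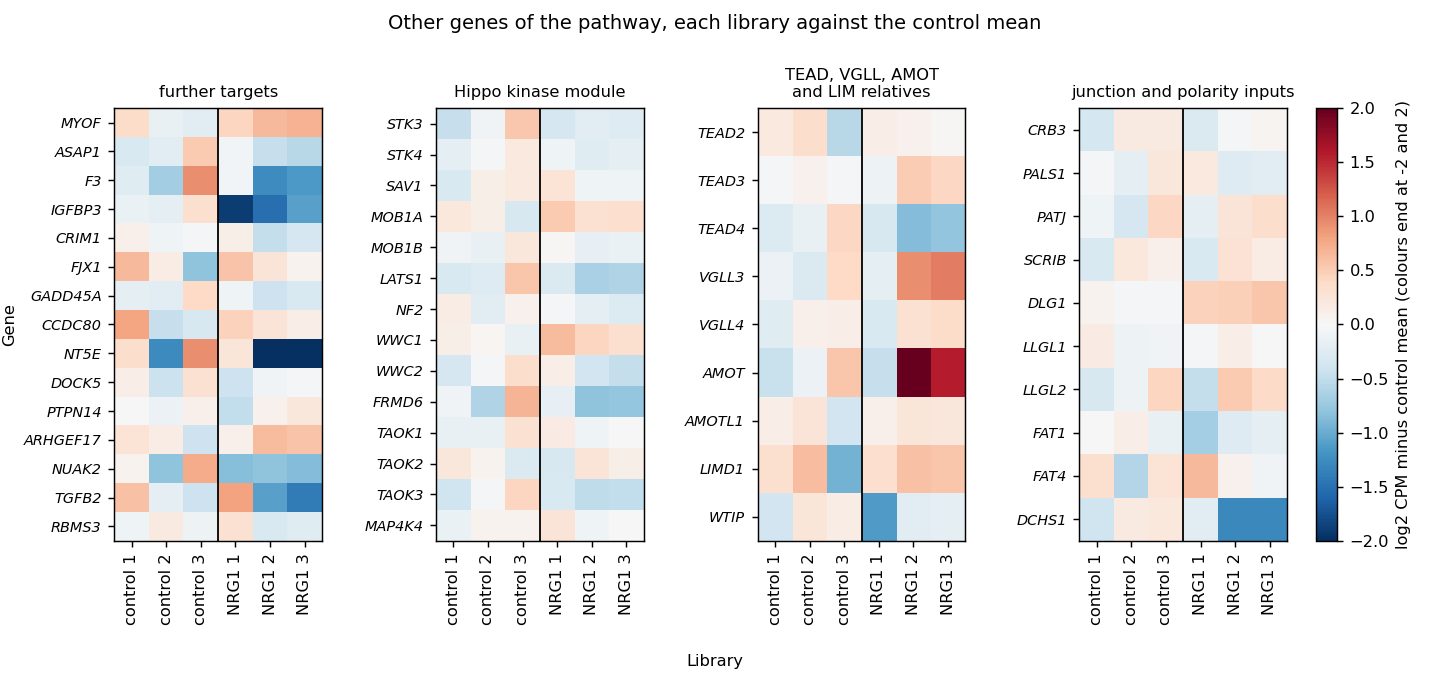
Each tested gene of the 4 lists of other pathway genes (rows) in each library (columns), coloured by log2 CPM minus the mean of the 3 controls, red above and blue below. NT5E and AMOT have the strongest colours in NRG1 2 and NRG1 3, and DLG1 is red in all 3 NRG1 libraries.

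The 5 other genes whose level over the 6 libraries followed the mean of CCN1 and CCN2 most closely were SEC23A, ABHD10, EGFR, KCTD9 and NUBP1, with Pearson r from 0.989 to 0.996. These are the highest of many genes over only 6 libraries, which share the high place of control 3 and NRG1 1, so r is given as a description with no p. EGFR, the receptor of the EGF family, gave 486, 469 and 658 CPM with the control vector and 729, 381 and 406 CPM with NRG1 (log2 fold change -0.091). Control 3 and NRG1 1 were its highest libraries too, over a range of less than a doubling, far narrower than that of CCN2.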

How the data were processed

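PolyA RNA libraries (3 control, 3 NRG1, grouped and numbered by title) were made with a TruSeq v2 kit, per the labels. The deposited expected counts, not whole and not normalized, came, per the submitters' processing notes, with hg19, RSEM 1.3.0 and STAR 2.5.3a (roles and annotation not given in the sources used). RSEM splits reads that fit several genes, so close paralogs are uncertain. A deposited log2 table of 14759 genes equalled TMM-scaled log2 CPM of these counts (prior count 0.25); it held 9 of the 10 members (not ANKRD1) and served as an alternative.

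Rounded counts went through edgeR 4.0.16 under R 4.3.3 (TMM, filterByExpr, quasi-likelihood test, no covariate), adjusted over all 15421 tested genes at 0.05. The tested genes held at least 99.7% of every library's counts. Intervals are 95% from the fit; levels are CPM and correlations use log2 CPM with a prior count of 2. Low levels rest on few counts, given for several of the named genes, and carry more counting error. Other settings were DESeq2 1.42.0, limma 3.58.1 (trend and voom), 2 other scalings, 2 other filters, the replicate number as a block and leaving out each library; 2 against 2 libraries was added after seeing the data. Gene symbols came from a name table (51959 of 57736 genes). Promoter windows came from RefSeq.

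Members and lists were chosen with earlier results of these data known. Named genes are the members, NRG1, the 5 genes with the smallest p in each list (1 of them is not reported here), and the 5 symbols of at least 5 CPM most correlated with the mean of CCN1 and CCN2. Outside this rule, NT5E, TGFB2 and PATJ were named after their values were seen, TEAD2, AMOTL1 and LIMD1 for levels beside their paralogs, and marker genes for their lists. No column of another sample was left over.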

Additional observations from a re-analysis of the deposited data

How the results depend on the processing

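None of the 10 genes was called by any setting on all 6 libraries or with 1 library left out; without control 3 and NRG1 1 there were 2 (CCN2 and AXL, lower). DESeq2 left CCN2 undefined, and limma-trend did not hold ANKRD1. Of 149 values of single genes under other settings, 131 kept their direction and side of the threshold, 16 turned and 2 passed it. The undefined CCN2 of DESeq2 was counted among the 131 as not past the threshold. The genes called over all genes numbered 209 with DESeq2, 218 with no low-count filter and 2 with limma-voom. With 1 library left out they numbered 1 to 49 (49 without NRG1 1). The 2 against 2 comparison called 1484, or 9.62% of all genes. Among them were 3 of 15 further targets, 3 of 9 TEAD, VGLL, angiomotin and LIM relatives and 3 of 10 junction genes. Members at an unadjusted p under 0.05 in edgeR numbered 1 without the filter (9.92% of all genes) and 4 in 2 against 2 (27.1%). With 1 library left out they numbered 0 to 3, the 3 without NRG1 1 (17.2% of all genes). Those without overlap numbered 1 with library totals alone (lower, as were 12.5% of all genes). They numbered 0 to 7 with 1 library left out and 8 in 2 against 2. The 7, without NRG1 1, and the 8 were all lower, against 22.2% and 28.8% of all genes. The CCN1 log2 fold change was -0.096 by limma-trend, -0.16 by limma-voom and -0.67 in 2 against 2, where AJUBA was at -0.038; the cause was not tested. With 1 library left out it ran from -1.21 to 0.99 for CCN1, -3.78 to 1.05 for CCN2, -1.22 to 0.23 for ANKRD1, -0.37 to 0.14 for AMOTL2 and -0.40 to 0.0024 for TEAD1. Other scalings moved the median of all genes by at most 0.044. Same-numbered libraries deviated with correlations of 0.0198, 0.125 and -0.0801, and unlike-numbered ones with -0.176 to 0.164. With 3 libraries per group, 1 of which stood apart in each, these values cannot decide whether the numbers pair the libraries. The replicate block called 2 genes over all and no member, and put CCN1 at -0.12 and CCN2 at -1.75.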
